A study of Mus musculus with 2 samples.

Results

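The genes described here are 35 immediate early and stress-response genes, chosen by name from the 23420 gene rows of a count table of mouse RPE-choroid. The RPE is the pigmented epithelium behind the photoreceptors, and the choroid is the vessel-rich coat beneath it. The 35 genes comprise the AP-1 subunits, the EGR, NR4A and KLF transcription factors, the dual-specificity MAP kinase phosphatases, and other rapidly induced factors, RNA decay factors, inhibitors and secreted products. Of these, 34 had counts and entered the test. The remaining gene, the AP-1 subunit Fosl1, was at 0 counts in all 6 libraries.

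Immediate early genes are transcribed soon after a stimulus reaches a cell, without the need for new protein synthesis. Growth factors, calcium, shear stress and injury activate MAP kinases and other kinases, which act on factors already bound at the promoters, such as serum response factor and CREB. Many of the products are short-lived transcription factors that drive later genes, while others, such as the dual-specificity phosphatases, Zfp36 and Socs3, shut the response down again. In vessel walls the flow-responsive factors Klf2 and Klf4 and the matrix-associated proteins Cyr61 and Ctgf belong to the same rapidly induced class.

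The series compared 3 AhR -/- animals (strain B6.129-AhRtm1Bra/J) with 3 AhR +/+ animals (C57BL6/J), all untreated and 11 to 13 months old. AhR, the aryl hydrocarbon receptor, binds small aromatic ligands and then acts as a transcription factor. The knockout is carried in every cell of the animal, so that a difference is not assigned to the RPE, the choroid or the rest of the body. RNA from 2 eyes of an animal was pooled in each library, after the anterior segment and the retina had been taken away, and polyadenylated RNA was sequenced. The named strain differed together with the genotype, so strain and genotype cannot be told apart in these libraries. The labels name the animals of each group but say nothing of litters or batches.

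The libraries held from 18058725 to 28692624 gene counts. Ahr itself was at 41.4, 45.4 and 40.6 CPM (the count scaled to the TMM-adjusted library size) in animals 1, 2 and 3 labelled knockout. The wild-type animals 1, 2 and 3 had 19.7, 20.2 and 26.0 CPM. The whole-gene count was therefore higher under the knockout label (log2 fold change 0.95, SE 0.16, adjusted p = 0.0991) and does not check the deletion, so these libraries are called knockout-labelled here. Sex was read from the counts of Xist and of Y-linked genes. Xist stood at 19592, 20 and 29 reads under the knockout label and at 22457, 98 and 86 reads in wild type. The Y-linked Ddx3y stood at 6, 2844 and 3224 against 7, 2855 and 3494 reads. By these, animal 1 was female in both groups, and animals 2 and 3 were male. Summed RPE markers (Rpe65, Best1, Rlbp1, Ttr, Lrat and Rgr) stood between 20300 and 35200 CPM in the knockout-labelled and between 26700 and 37000 CPM in the wild-type libraries. The libraries also held RNA of other tissues in unequal amounts. Photoreceptor markers added up to 12980, 11840 and 11530 CPM under the knockout label against 8034, 9020 and 17380 CPM, highest in wild-type animal 3. Lens markers added up to 13.9, 14.1 and 1147 CPM against 244, 840 and 53.6 CPM. Both sums overlapped between the groups. Summed cornea and conjunctiva markers stood between 3940 and 16100 CPM under the knockout label, lowest in animal 1, and between 3020 and 6500 CPM in wild type. Summed erythroid markers stood between 55.9 and 1070 CPM, highest in animal 1, against 4.29 to 33.7 CPM in wild type. Summed endothelial markers stood between 516 and 796 CPM against 846 to 895 CPM. Pericyte and smooth muscle markers were lower in sum (896, 731 and 683 CPM against 1069, 1049 and 931), and neutrophil markers higher (118, 56.2 and 77.5 CPM against 12.6, 6.32 and 6.25), each without overlap. Of the neutrophil markers 1 of 4 tested was called, as higher, against 0.0506% of all genes called. Under the knockout label most of the neutrophil sum was Ltf, at 88.0, 46.0 and 62.2 CPM against 6.62, 1.82 and 3.25 CPM. Camp overlapped between the groups (3.44, 0.110 and 1.69 CPM against 2.11, 2.44 and 1.52 CPM), and Ngp was at 0 in all libraries. The part of these tissues in the results was not tested.

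None of the 34 tested genes passed an adjusted p of 0.05 in edgeR's quasi-likelihood test, which called 8 of 15796 genes (0.0506%). At an unadjusted p under 0.05 there were 10 of the 34 (29.4%), against 14.2% of all genes tested. The receptor Nr4a1, the factors Klf2, Jund and Egr3, the phosphatase Dusp1, the growth arrest gene Gadd45g and the secreted Ctgf made up the 7 that were lower under the knockout label (20.6%, against 6.62% of all genes). The factor Klf6, the survival-associated gene Ier3 and the phosphatase Dusp5 made up the 3 that were higher (8.8%, against 7.55%). The 3 knockout-labelled libraries all lay below the 3 wild-type libraries for 8 genes (23.5%, against 9.96% of all genes), which were those 7 and Arc. They all lay above wild type for 3 genes (8.8%, against 10% of all genes), again Klf6, Ier3 and Dusp5. Over the 34 genes the median log2 fold change was -0.04, against 0.01 over all genes, and 20 of the 34 (58.8%) were below 0, against 48.8% of all genes. Egr3 and Arc reached the filter on low counts only through their wild-type libraries. Among the 32 genes that reached it in both genotypes, 6 were lower and 3 were higher at an unadjusted p under 0.05, and the median was -0.03. The median transcript GC content was 54.2% for the listed genes and 49.8% for all genes. With GC correction 6 of the 34 were lower and 2 higher at an unadjusted p under 0.05, against 1910 of all 15615 genes in either direction. The median log2 fold change of the 34 was then -0.0009.

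**Figure D1:**
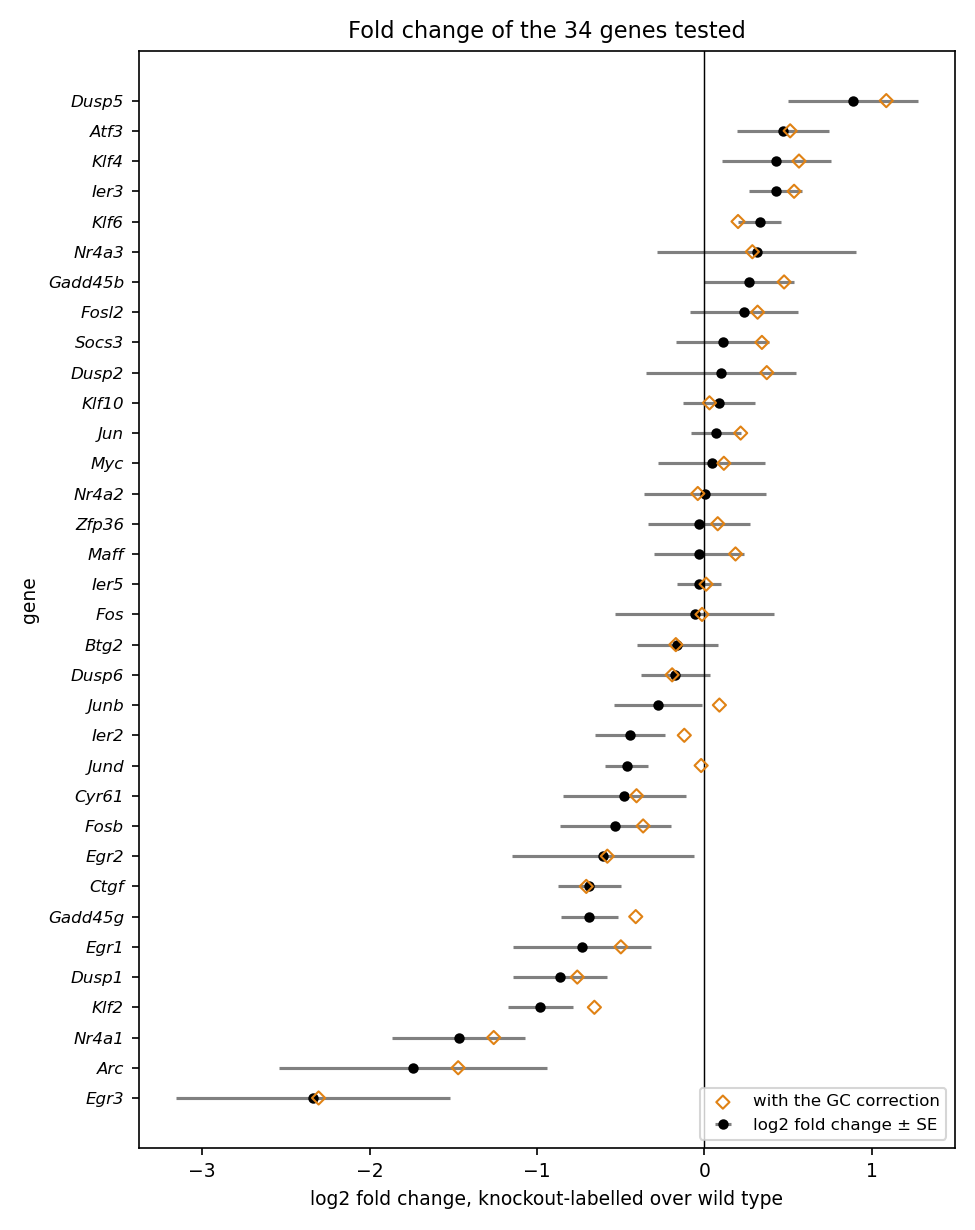
Log2 fold change of each of the 34 tested genes, knockout-labelled over wild-type libraries (3 each), with bars of 1 SE, ordered by size; open diamonds give the value after GC correction. Egr3, Arc and Nr4a1 lie farthest below 0 at -2.34, -1.74 and -1.47, and Dusp5 lies farthest above it at 0.89; none passed the adjusted threshold.

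The AP-1 subunits pair as dimers on DNA, Fos proteins with Jun proteins or Jun proteins with each other. Jund, the subunit whose transcript is present without a stimulus in most cells, was at 89.1, 71.3 and 87.1 CPM in knockout-labelled animals 1, 2 and 3 and stood at 116, 121 and 105 CPM for the wild-type animals 1, 2 and 3. Every knockout-labelled library was below every wild-type one. The group means were 82.5 ± 9.75 and 114 ± 8.37 CPM (SD, n = 3 each), for which the log2 fold change was -0.46 (SE 0.13, adjusted p = 0.186). Jund has a transcript GC content of 67.15%, and after correction for GC content the log2 fold change was -0.02.

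Fos, the classical inducible partner of Jun, was at 16.9, 43.4 and 84.2 CPM under the knockout label and at 63.3, 54.6 and 32.4 CPM in wild type. The knockout-labelled animals enclosed the wild-type range on both sides, with animal 1 the lowest and animal 3 the highest of all 6. The group means of 48.2 ± 33.9 and 50.1 ± 15.9 CPM (SD, n = 3 each) gave a log2 fold change of -0.06 (SE 0.47, adjusted p = 0.971). Fosb was at 4.82, 4.67 and 9.59 CPM against 10.4, 8.97 and 8.26 CPM. Its animals 1 and 2 under the knockout label lay below wild type and animal 3 lay within it (log2 fold change -0.53, SE 0.33, adjusted p = 0.504). Junb was at 54.5, 61.6 and 93.5 CPM against 109, 88.5 and 56.1 CPM, and the groups overlapped (log2 fold change -0.28, SE 0.26, adjusted p = 0.680). Its sign turned to 0.09 after GC correction, and 7.5% of its exon bases are shared with Prdx2 in the annotation, whose reads cannot be told apart from its own where the strand setting is unknown.

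Jun, the common partner of the Fos proteins, was close in all animals, at 138, 124 and 168 CPM against 154, 124 and 132 CPM (log2 fold change 0.07, SE 0.15, adjusted p = 0.877). Fosl2, a Fos relative of slower induction, was at 51.3, 131 and 92.9 CPM against 101, 54.2 and 77.6 CPM. Its knockout-labelled range enclosed the wild-type one, as for Fos, but with animal 2 the highest (log2 fold change 0.24, SE 0.32, adjusted p = 0.786). In all, 1 of 6 tested AP-1 subunits was below an unadjusted p of 0.05 (16.7%), a share near the 14.2% of all genes. For Fosl1, 57.2% of the exon bases are shared with Ccdc85b in the annotation, so its count of 0 may not reflect its transcript.

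The EGR factors are zinc-finger proteins induced through serum response factor. Egr1 was at 52.2, 118 and 228 CPM in knockout-labelled animals 1, 2 and 3 and stood at 252, 207 and 201 CPM for the wild-type animals. Animals 1 and 2 under the knockout label were below all wild-type animals, while animal 3 lay among them. The means were 132 ± 88.6 and 220 ± 27.7 CPM (SD, n = 3 each), with a log2 fold change of -0.73 (SE 0.41, adjusted p = 0.461). Egr2, which also directs myelination in Schwann cells, was at 1.89, 2.09 and 7.37 CPM against 3.95, 6.65 and 6.74 CPM. It showed the same order within the knockout label, with animal 3 above all other animals (log2 fold change -0.61, SE 0.54, adjusted p = 0.659). Without knockout-labelled animal 3 the log2 fold change was -1.38 for Egr1 and -1.54 for Egr2, and without animal 1 it was -0.35 and -0.28. Without knockout-labelled animal 2 it was -0.32 for Egr2. Of 5 Schwann cell markers, 3 were lower at an unadjusted p under 0.05 (60%, against 6.62% of all genes). The 5 markers summed to 357, 230 and 232 CPM against 340, 374 and 311 CPM, and their part in the Egr2 values was not tested.

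Egr3 was counted at 4, 12 and 15 reads in the knockout-labelled libraries and at 32, 103 and 52 reads in the wild-type ones. In CPM this was 0.168, 0.658 and 0.604 against 1.20, 4.26 and 1.80, with no overlap. The log2 fold change of -2.34 (SE 0.82, adjusted p = 0.263) had the largest standard error of the 34 genes, and within wild type animal 2 alone stood well above the others. All 3 EGR genes had a log2 fold change below 0, as did 48.8% of all genes. Of these, Egr3 reached the filter only through its wild-type libraries, and Egr1 and Egr2 overlapped between the groups.

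The NR4A receptors are orphan nuclear receptors induced by cAMP, calcium and mechanical stimuli. Nr4a1 was at 29.5, 43.5 and 103 CPM in the knockout-labelled animals and stood at 200, 161 and 126 CPM for the wild-type animals. All knockout-labelled animals lay below wild type, although animal 3 came close to wild-type animal 3. The means were 58.6 ± 38.9 and 162 ± 37.0 CPM (SD, n = 3 each), for which the log2 fold change was -1.47 (SE 0.40, adjusted p = 0.185). Nr4a2 and Nr4a3 overlapped between the groups. Nr4a2 was at 6.49, 8.51 and 10.4 CPM against 12.6, 4.83 and 7.84 CPM (log2 fold change 0.00, SE 0.36, adjusted p = 0.998). Nr4a3 was at 2.89, 1.59 and 1.33 CPM against 1.13, 1.61 and 1.94 CPM (log2 fold change 0.31, SE 0.59, adjusted p = 0.856). Their intervals are wide, and whether the 3 receptors differ in their fold changes was not tested.

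The KLF factors of the list include Klf2 and Klf4, which laminar flow induces in endothelium. Klf2 was at 38.8, 38.3 and 41.7 CPM under the knockout label and at 103, 59.3 and 71.9 CPM in wild type. The 3 knockout-labelled animals were nearly equal and all lay below wild type. The means were 39.6 ± 1.82 and 78.1 ± 22.5 CPM (SD, n = 3 each), for which the log2 fold change was -0.98 (SE 0.19, adjusted p = 0.128), and -0.66 after GC correction. Klf4, also abundant in corneal epithelium, was at 54.5, 109 and 98.6 CPM against 98.8, 45.1 and 50.6 CPM. In Klf4 the highest animals of both groups were those with the most cornea marker RNA (log2 fold change 0.43, SE 0.33, adjusted p = 0.594).

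Klf6, a broadly expressed injury-induced factor, was at 113, 132 and 101 CPM under the knockout label and at 97.2, 89.6 and 88.1 CPM in wild type. The groups did not overlap, and animal 3 and wild-type animal 1 lay close to each other. The means were 115 ± 15.9 and 91.7 ± 4.88 CPM (SD, n = 3 each), with a log2 fold change of 0.33 (SE 0.13, adjusted p = 0.305), and 0.20 after GC correction. Klf10, a TGF-beta-induced factor, was at 20.5, 22.9 and 22.7 CPM against 24.1, 14.5 and 23.6 CPM, and only wild-type animal 2 stood apart (log2 fold change 0.09, SE 0.22, adjusted p = 0.896). Of the 4 KLF genes, 1 thus lay below 0 and 3 above.

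Among the other induced transcription factors no gene was below an unadjusted p of 0.05. Atf3, a stress-induced bZIP factor, was at 16.6, 19.7 and 14.5 CPM against 14.7, 14.4 and 7.64 CPM, where wild-type animal 3 was the lowest and the groups overlapped by a small margin (log2 fold change 0.47, SE 0.27, adjusted p = 0.474). Myc, which drives growth and division, was at 5.03, 4.61 and 4.59 CPM against 5.49, 4.71 and 3.59 CPM (log2 fold change 0.05, SE 0.32, adjusted p = 0.965). Maff, a small Maf protein, was at 10.8, 11.1 and 8.90 CPM against 12.9, 11.3 and 7.19 CPM (log2 fold change -0.03, SE 0.27, adjusted p = 0.972). The wild-type range of Maff enclosed its knockout-labelled range.

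The dual-specificity phosphatases remove phosphate from MAP kinases and so end the signal that induced them. Dusp1, a nuclear phosphatase acting on p38 and JNK, was at 50.4, 71.0 and 96.9 CPM under the knockout label and at 187, 110 and 99.4 CPM in wild type. The groups did not overlap, but knockout-labelled animal 3 and wild-type animal 3 were close. The means were 72.8 ± 23.3 and 132 ± 48.0 CPM (SD, n = 3 each), for which the log2 fold change was -0.86 (SE 0.28, adjusted p = 0.239). Without wild-type animal 1, the highest library, it was -0.53.

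Dusp5, a nuclear ERK phosphatase, was at 4.02, 5.21 and 4.96 CPM under the knockout label and at 3.23, 2.52 and 1.90 CPM in wild type. All knockout-labelled animals were above wild type, on 55 to 123 reads per library. The means were 4.73 ± 0.627 and 2.55 ± 0.667 CPM (SD, n = 3 each), with a log2 fold change of 0.89 (SE 0.39, adjusted p = 0.345). Dusp6, a cytoplasmic ERK phosphatase, was at 307, 174 and 225 CPM against 260, 297 and 239 CPM (log2 fold change -0.17, SE 0.20, adjusted p = 0.753). Dusp2 was at 5.28, 5.98 and 2.10 CPM against 3.08, 4.42 and 4.91 CPM (log2 fold change 0.10, SE 0.45, adjusted p = 0.945). In both of these the knockout-labelled range enclosed the wild-type range.

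**Figure D2:**
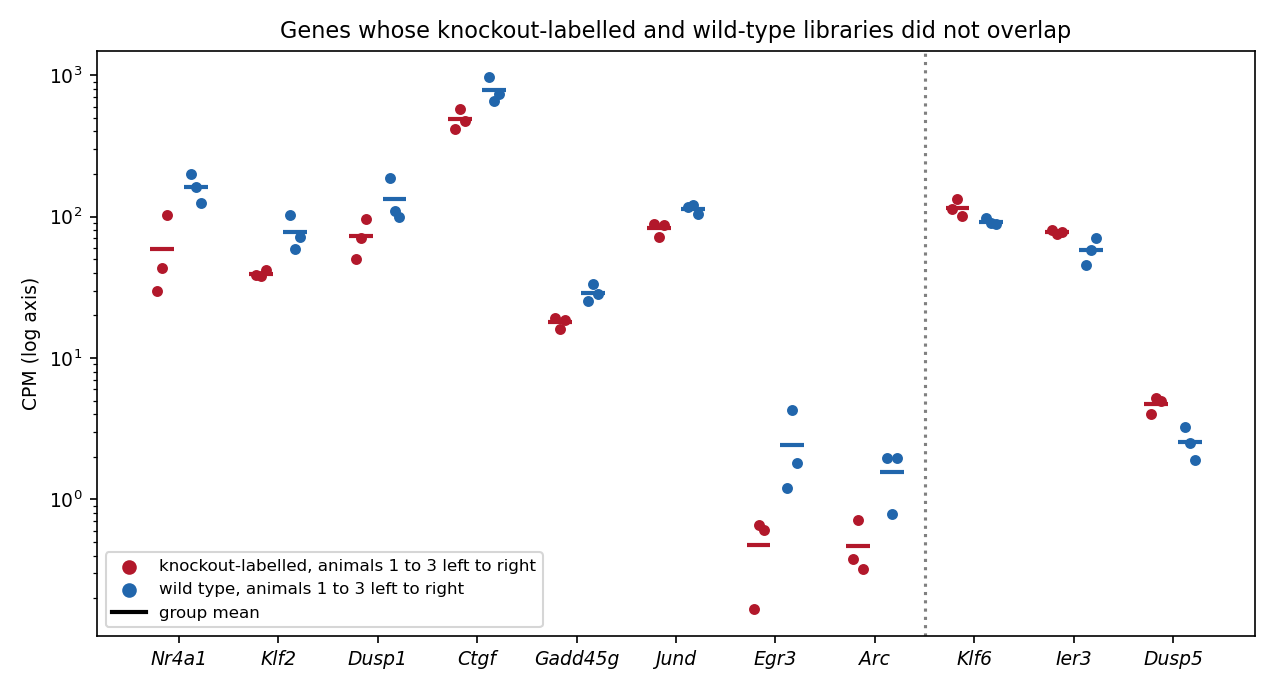
CPM in each of the 6 libraries, on a log axis, for the 11 genes whose groups did not overlap; each point is 1 animal and the horizontal lines are group means. Klf2 lies between 38.3 and 41.7 CPM under the knockout label and between 59.3 and 103 CPM in wild type, while Nr4a1 spreads from 29.5 to 103 CPM under the knockout label.

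Promoter sequence is shown for Nr4a1, Klf2 and Dusp1, the 3 genes with the lowest log2 fold changes among those with an entry in the RefSeq table, and for Dusp5, which had the highest. These 4 were chosen after their values were seen. Each run is the 250 bases before the RefSeq start (GRCm38.p6), read 5′ to 3′ on the gene's own strand. Capitals mark matches, on either strand, to the CArG box that serum response factor binds, to the cAMP response element (TGACGTCA), to the AP-1 site (TGANTCA) or to the core of the AhR element (GCGTG). Positions count back from the start.
Nr4a1, chr15:101266596-101266845, plus strand: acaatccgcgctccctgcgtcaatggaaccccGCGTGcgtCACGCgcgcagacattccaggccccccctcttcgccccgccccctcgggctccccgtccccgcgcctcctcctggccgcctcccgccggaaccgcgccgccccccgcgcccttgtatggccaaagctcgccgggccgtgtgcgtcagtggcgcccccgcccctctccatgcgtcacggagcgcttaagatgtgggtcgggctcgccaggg
Klf2, chr8:72318812-72319061, plus strand: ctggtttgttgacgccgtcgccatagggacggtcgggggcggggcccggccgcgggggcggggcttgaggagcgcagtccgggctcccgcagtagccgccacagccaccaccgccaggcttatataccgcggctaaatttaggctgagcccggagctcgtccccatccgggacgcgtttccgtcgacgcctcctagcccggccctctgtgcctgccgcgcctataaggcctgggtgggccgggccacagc
Dusp1, chr17:26508473-26508722, minus strand: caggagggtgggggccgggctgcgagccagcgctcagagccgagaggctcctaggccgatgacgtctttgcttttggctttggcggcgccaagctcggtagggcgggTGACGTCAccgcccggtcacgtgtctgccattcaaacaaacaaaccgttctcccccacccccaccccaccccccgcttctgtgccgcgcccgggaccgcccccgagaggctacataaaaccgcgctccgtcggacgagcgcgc
Dusp5, chr19:53528895-53529144, plus strand: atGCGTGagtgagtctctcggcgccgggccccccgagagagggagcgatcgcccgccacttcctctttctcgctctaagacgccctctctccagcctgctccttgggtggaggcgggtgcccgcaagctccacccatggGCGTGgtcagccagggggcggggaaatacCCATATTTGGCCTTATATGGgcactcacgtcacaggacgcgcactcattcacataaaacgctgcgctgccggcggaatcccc

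In these windows Nr4a1 held matches to the AhR core at -218 and -210, and none to the other motifs. Dusp1 held a cAMP response element from -143 to -136. Dusp5 held CArG boxes starting at -82 and -72 and AhR cores at -248 and -111. Klf2 held no match to any of the 4 motifs, which says only that these letters are not in this window. Of the 35 genes, 27 had at least 1 entry in the table, 33 entries of 300 bases in all (250 before to 50 after the start). A CArG box was in 6 of the 33 entries (18.2%), against 1.6% of all 32851 entries. By gene this was 3 of 27 (11.1%), Egr2, Dusp5 and Zfp36, since 4 of the 6 entries belong to Egr2 and the windows of 3 of those overlap and hold the same box. A cAMP response element was in 3 entries (9.1%), those of Maff, Dusp1 and Btg2, against 1.8%. The AP-1 site was in 0 of the 33 entries, against 7.8%, and the AhR core was in 15 (45.5%), against 32.4%. A match is a description of the sequence and does not show that a factor is bound there.

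The inhibitors and RNA decay factors overlapped between the groups. Zfp36, which speeds decay of transcripts with AU-rich elements, was at 39.6, 48.3 and 82.1 CPM against 66.4, 70.8 and 36.5 CPM (log2 fold change -0.03, SE 0.31, adjusted p = 0.977). Btg2, an antiproliferative factor that recruits deadenylases, was at 42.0, 43.5 and 59.3 CPM against 73.0, 52.5 and 36.6 CPM (log2 fold change -0.16, SE 0.24, adjusted p = 0.814). In both, animal 3 was the highest of the knockout-labelled and the lowest of the wild-type animals. Socs3, an inhibitor of JAK-STAT signalling, was at 22.9, 14.6 and 18.8 CPM against 20.1, 21.3 and 10.9 CPM (log2 fold change 0.11, SE 0.28, adjusted p = 0.899).

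The IER genes share a name as immediate early response genes rather than a common function. Ier3, associated with cell survival, was at 80.9, 75.0 and 77.7 CPM under the knockout label and at 45.7, 58.1 and 70.1 CPM in wild type. The knockout-labelled animals were close together and all above wild type. The means were 77.9 ± 2.96 and 58.0 ± 12.2 CPM (SD, n = 3 each), for which the log2 fold change was 0.43 (SE 0.16, adjusted p = 0.287). Ier2 was at 35.8, 40.4 and 63.3 CPM against 66.9, 67.2 and 55.6 CPM (log2 fold change -0.44, SE 0.21, adjusted p = 0.381). Its animal 3 under the knockout label lay inside the wild-type range, and after GC correction its log2 fold change was -0.12. Ier5 was the steadiest, at 41.1, 47.5 and 39.7 CPM against 41.9, 45.9 and 43.4 CPM (log2 fold change -0.03, SE 0.13, adjusted p = 0.939).

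The GADD45 genes encode small proteins that act on cell cycle and stress kinases. Gadd45g was at 19.2, 16.0 and 18.5 CPM under the knockout label and at 25.2, 33.1 and 28.4 CPM in wild type. The groups were well apart for this gene, with little spread in either. The means were 17.9 ± 1.68 and 28.9 ± 3.96 CPM (SD, n = 3 each), for which the log2 fold change was -0.69 (SE 0.17, adjusted p = 0.172), and -0.41 after GC correction. Gadd45b was at 16.0, 20.7 and 11.6 CPM against 11.3, 17.2 and 11.5 CPM, with overlap (log2 fold change 0.27, SE 0.27, adjusted p = 0.698).

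Ctgf and Cyr61 are secreted matrix-associated proteins of the CCN family, both targets of the mechanosensitive YAP pathway. Ctgf was at 419, 576 and 476 CPM under the knockout label and at 965, 662 and 742 CPM in wild type. The groups did not overlap, and wild-type animal 1 stood highest. The means were 491 ± 79.5 and 790 ± 157 CPM (SD, n = 3 each), for which the log2 fold change was -0.69 (SE 0.19, adjusted p = 0.185). Per kilobase of the longest annotated transcript, the mean wild-type level of Ctgf was 317 CPM, the highest of the 35 genes, followed by Dusp6 at 94.9, Cyr61 at 78.4 and Jund at 68.3. Cyr61 was at 47.5, 134 and 160 CPM against 123, 188 and 164 CPM. Only its knockout-labelled animal 1 lay below the wild-type range (log2 fold change -0.48, SE 0.37, adjusted p = 0.603), and without that animal the log2 fold change was -0.11. Without knockout-labelled animal 3 it was -0.81.

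Arc, a cytoskeletal protein known from activated neurons, was counted at 9, 13 and 8 reads against 52, 19 and 57 reads. In CPM this was 0.377, 0.713 and 0.322 against 1.96, 0.785 and 1.97, so that knockout-labelled animal 2 and wild-type animal 2 nearly met. The log2 fold change was -1.74 (SE 0.80, adjusted p = 0.372). Summed over the 35 genes, the counts made up 0.180%, 0.224% and 0.254% of all gene counts in knockout-labelled animals 1, 2 and 3 and 0.331%, 0.265% and 0.258% in wild type. Ctgf supplied between 18.9% and 29.5% of that sum, and without it the shares were 0.139%, 0.166% and 0.206% against 0.234%, 0.200% and 0.183%, which overlapped.

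The spread between animals of 1 genotype was wide for many of these genes. Each group held animals of both sexes, so this spread holds any difference by sex as well. The median standard deviation of log2 CPM within genotypes was 0.417 over the 34 genes and 0.263 over all genes tested. Set against genes of like mean (within 0.25 of log2 CPM), 26 of the 34 were above the median, and the median gene stood at percentile 77.9. Fos (0.896, percentile 99.6), Egr1 (0.762, percentile 98.9), Cyr61 (0.703, percentile 99.1) and Nr4a1 (0.692, percentile 99.1) had the widest spread among genes of like level. Ier5 (0.108, percentile 12.5) and Gadd45g (0.170, percentile 25.0) were among the steadiest.

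Under the knockout label the highest animal stood above the lowest by 4.99 times for Fos, 4.36 times for Egr1, 3.91 times for Egr2, 3.48 times for Nr4a1 and 3.37 times for Cyr61. In wild type the same ratios were 1.95, 1.25, 1.71, 1.59 and 1.52. The order went the other way for Klf2, with 1.09 under the knockout label and 1.74 in wild type, and for Ier3, with 1.08 and 1.53. Of the 34 genes 17 had the larger standard deviation under the knockout label, against 64.0% of all genes tested, and whether the genotypes differ in spread was not tested.

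**Figure D3:**
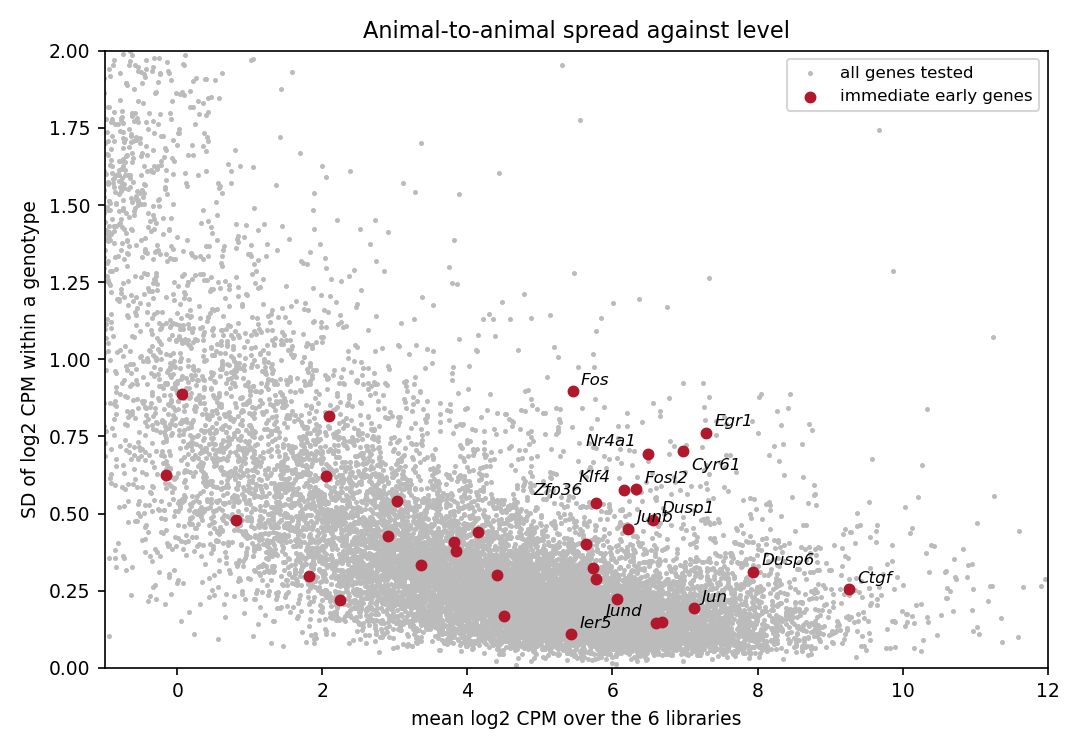
Standard deviation of log2 CPM within genotypes against mean log2 CPM, with all genes tested in grey and the 34 genes as red points, some of them named; 551 genes lie outside the plotted range. Fos, Egr1, Nr4a1 and Cyr61 lie near the upper edge for their level, and Ier5 lies low.

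Many of the genes followed the same order among the knockout-labelled animals. Animal 1 was the lowest of the 3 for 17 of the 34 genes, against 37.1% of all genes tested, and animal 3 was the highest for 14, against 28.8%. There were 11 genes (32.4%, against 15.4% of all genes) that were lowest in animal 1 and highest in animal 3, namely Fos, Junb, Egr1, Egr2, Nr4a1, Nr4a2, Dusp1, Zfp36, Btg2, Ier2 and Cyr61. They span transcription factors, the phosphatase and the decay factors alike. In wild type animal 1 was the highest for 19 of the 34 genes, against 33.8% of all genes, and animal 3 the lowest for 17, against 35% of all genes. The median deviation of the 34 genes from their wild-type mean in log2 CPM was -0.33, -0.20 and 0.05 in knockout-labelled animals 1, 2 and 3 and 0.26, 0.06 and -0.13 in wild-type animals. Over all genes tested the same medians lay between -0.004 and 0.020. By this median, knockout-labelled animal 3 therefore lay inside the wild-type range, and animals 1 and 2 below it. Animal 1 was the only female of each group, so its place in these orders cannot be told apart from sex.

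**Figure D4:**
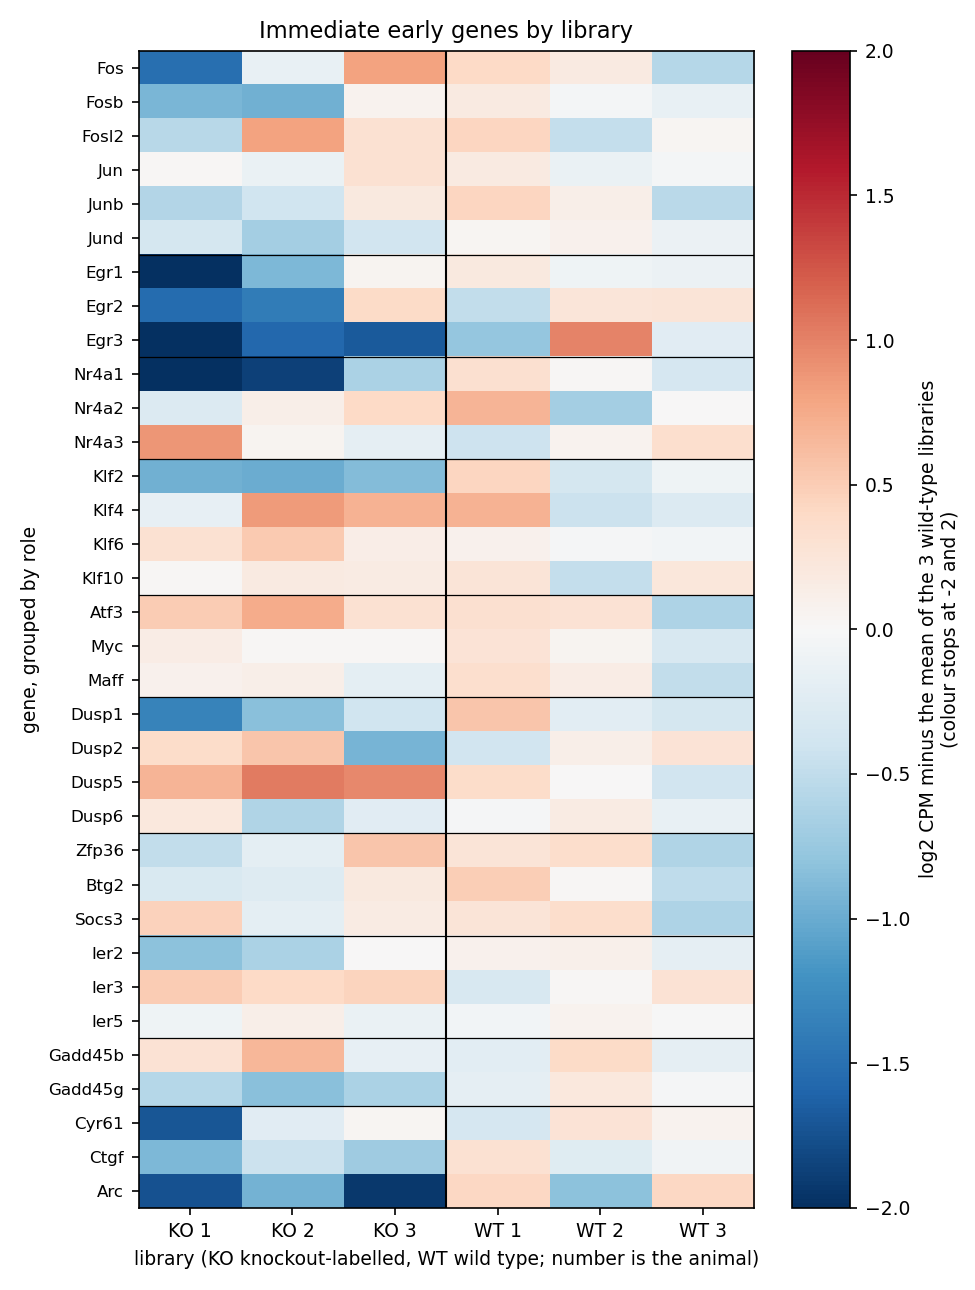
Log2 CPM of each of the 34 genes in each of the 6 libraries minus its mean over the wild-type libraries, by family; colour stops at 2 log2 units on either side. Fos, Egr1, Egr2, Nr4a1 and Dusp1 are lowest in knockout-labelled animal 1 and highest of that group in animal 3. In animal 3 Fos (0.804) and Egr2 (0.387) lie above all wild-type libraries and Egr1 (0.057) lies among them. Nr4a1 (-0.633) and Dusp1 (-0.391) lie below them there. Klf2 is below the wild-type level to a like extent in all 3 knockout-labelled animals.

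RNA of other cell types differed between the groups beside these genes. All 8 endothelial markers had a log2 fold change below 0, against 48.8% of all genes. At an unadjusted p under 0.05, 4 of them were lower (50%, against 6.62% of all genes). In this bulk tissue, fewer cells of a type and less RNA per cell cannot be told apart. Klf2 is expressed in endothelium, and per 100 CPM of the endothelial marker sum it was at 4.88, 6.61 and 8.07 CPM under the knockout label and at 11.5, 7.01 and 8.22 CPM in wild type. On that scale Klf2 overlapped between the groups. Within the knockout label the order was opposite, since the endothelial sum was highest in animal 1 and lowest in animal 3 (796, 579 and 516 CPM), while Nr4a1 and Dusp1 were lowest in animal 1 and highest in animal 3 and Klf2 was nearly level. Nr4a1 was at 3.71, 7.51 and 19.9 CPM against 22.3, 19.1 and 14.4 CPM on it, and Dusp1 at 6.34, 12.3 and 18.8 CPM against 20.9, 13.0 and 11.4 CPM. Ctgf was at 52.7, 99.6 and 92.3 CPM against 108, 78.3 and 84.8 CPM. These 3 overlapped as well, as did Jund and Gadd45g. The endothelial sum was itself lower without overlap under the knockout label, so this scale raises any gene there relative to wild type. The genes put on it had been picked as lower, and Klf6, Ier3 and Dusp5, which were higher, were not put on it. This scale was chosen after seeing the data, it treats each transcript as endothelial, and the part of endothelial RNA in the differences was not tested.

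Of the 10 cornea and conjunctiva markers, 9 were higher under the knockout label at an unadjusted p under 0.05 (90%, against 7.55% of all genes). Krt12, the corneal keratin, was at 206, 4103 and 2903 CPM against 805, 511 and 302 CPM. Of the erythroid markers, Alas2, the heme synthesis enzyme of red cell precursors, was at 847, 45.4 and 57.9 CPM against 3.76, 16.2 and 27.4 CPM, and Hba-a1 and Hba-a2 were listed at 0. Knockout-labelled animal 1, the library with the lowest Fos, Egr1, Nr4a1 and Cyr61, thus held the most erythroid and the least corneal RNA of its group. With the cornea marker level as a term in the fit the log2 fold change was -2.23 for Nr4a1, -1.18 for Klf2, -1.43 for Dusp1 and -1.0 for Ctgf. With the erythroid marker level as a term it was -0.59 for Nr4a1, -0.68 for Klf2, -0.06 for Dusp1 and -0.29 for Ctgf. With the endothelial marker level as a term, an alternative added after seeing the data, it was -3.12, -1.01, -1.67 and -0.87 for the same 4 genes. The sizes for Nr4a1, Klf2, Dusp1 and Ctgf thus depended on which marker level was in the fit. With the endothelial term their adjusted p values were 0.183, 0.833, 0.647 and 0.854. Erythroid marker levels and endothelial marker sums did not overlap between the groups. In 6 libraries genotype can hardly be separated from these terms. None of the 10 genes below an unadjusted p of 0.05 turned its sign in the 19 alternatives run, but the 10 were picked from the same libraries.

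Other tests on the same counts called some of these genes. DESeq2 called Klf2 (adjusted p = 0.00108), Ctgf (adjusted p = 0.0109) and Gadd45g (adjusted p = 0.0375), each lower, at a share of 2.55% of all genes. The edgeR exact test called Klf2 (adjusted p = 0.002) and Nr4a1 (adjusted p = 0.0217), at 2.23% of all genes. In the authors' deposited table Nr4a1 (log2 fold change -1.41, FDR 0.000436), Klf2 (-0.98, FDR 0.000566) and Dusp1 (-0.85, FDR 0.0354) were below an FDR of 0.05, as were 2.37% of the genes listed there. Klf2 was also called by edgeR's quasi-likelihood test without knockout-labelled animal 1 (log2 fold change -0.97, adjusted p = 0.0452), a fit that called 4.95% of all genes. With the cornea marker term Dusp1 was called (adjusted p = 0.0484, 0.209% of all genes). With the erythroid marker term Klf4 (log2 fold change 1.44, adjusted p = 0.00521) and Fosl2 (1.08, adjusted p = 0.0431) were called as higher, at 5.48% of all genes.

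The wider pathway was read from 8 further lists, in each of which 0 genes passed the adjusted threshold. These lists too were chosen with earlier results known, so shares above those of all genes are not separate support. Of 33 further immediate early genes tested, 5 were higher (15.2%, against 7.55% of all genes) and 6 lower (18.2%, against 6.62%) at an unadjusted p under 0.05. The smallest p values belonged to Phlda1, a pleckstrin-homology protein, at 127, 146 and 127 CPM against 97.4, 93.6 and 84.6 CPM (log2 fold change 0.54, adjusted p = 0.145), and to Hbegf, an EGF receptor ligand (log2 fold change 0.68, adjusted p = 0.171). Both lay above wild type in all 3 knockout-labelled animals. The 2 next genes went apart, Csrnp1 at 14.5, 17.3 and 17.6 CPM against 40.0, 26.9 and 23.8 CPM, and Nfkbiz at 24.7, 38.3 and 28.7 CPM against 21.3, 13.8 and 15.8 CPM. Tiparp, a well-known AhR target, was at 46.8, 48.5 and 47.5 CPM against 41.0, 35.9 and 34.2 CPM (log2 fold change 0.36, adjusted p = 0.271). Csrnp1, Nfkbiz and Tiparp were picked after their values were seen.

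Upstream of the immediate early promoters, 3 of 16 factors were lower (18.8%, against 6.62% of all genes) and 0 higher (against 7.55%) at an unadjusted p under 0.05. Crtc1, a CREB coactivator, had a log2 fold change of -0.66 (adjusted p = 0.171), and Elk1, a ternary complex factor that works with serum response factor, of -0.71 (adjusted p = 0.247). Of 20 MAP kinases and their kinases, 3 were lower (15%) and 1 higher (5%), against the same shares of all genes. Mapk3, which encodes ERK1, was at 243, 197 and 200 CPM against 332, 343 and 248 CPM (log2 fold change -0.53, adjusted p = 0.228), and Map2k7, a JNK kinase, had -0.36 (adjusted p = 0.265). The groups did not overlap for any of these 4 genes, which were named for having the smallest p of their lists. Of all genes, 9.96% lay lower under the knockout label without overlap. For Mapk3 the gap was narrow, from 243 CPM in knockout-labelled animal 1 to 248 CPM in wild-type animal 3.

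Of 13 further feedback inhibitors of MAP kinase signalling, 5 were lower (38.5%, against 6.62% of all genes) and 1 higher (7.7%, against 7.55%) at an unadjusted p under 0.05. Dusp16, a JNK phosphatase, was at 35.7, 38.3 and 41.5 CPM against 26.1, 25.6 and 24.4 CPM (log2 fold change 0.60, adjusted p = 0.145). Spry1, an inhibitor of receptor tyrosine kinase signalling, was at 96.7, 63.4 and 63.2 CPM against 114, 108 and 105 CPM (log2 fold change -0.55, adjusted p = 0.230). The phosphatases Dusp7 (log2 fold change -0.35, adjusted p = 0.234) and Dusp4 (-0.55, adjusted p = 0.268), picked after their values were seen, were among the 5 lower genes.

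Genes below an unadjusted p of 0.05 in the remaining lists are set against 6.62% lower and 7.55% higher of all genes. Of 12 other bZIP partners of AP-1, 1 was lower (8.3%), Atf5 (log2 fold change -0.37, adjusted p = 0.320), and Jdp2 was next by p (0.34, adjusted p = 0.471). Of 11 other KLF factors there were 0, the nearest being Klf5 (0.64, adjusted p = 0.501) and Klf12 (-0.31, adjusted p = 0.508). Of 17 other SOCS, GADD45, TIS11, BTG and CCN genes, 1 was lower (5.9%), Socs1 (-1.60, adjusted p = 0.292), followed by the CCN gene Nov (-0.78, adjusted p = 0.383). Of 14 integrated stress and p53 response genes, 1 was lower (7.1%) and 1 higher (7.1%), near the shares of all genes. Ddit4, an inhibitor of mTOR, was at 185, 82.1 and 116 CPM against 226, 246 and 238 CPM (-0.89, adjusted p = 0.200), and Chac1, a target of the integrated stress response, was higher in level (0.58, adjusted p = 0.314).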

How the data were processed

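Polyadenylated RNA of 6 RPE-choroid libraries was analysed, 3 per genotype. One deposited table gives raw counts per gene, as whole numbers, in a column for each animal. Per the submitters' processing notes, the authors aligned reads to mm10 with Bowtie and TopHat and counted them with HTSeq. Tool versions, the annotation and the strand setting are not stated there. The authors also deposited a table of their edgeR comparison, whose log2 fold changes, p-values and FDR values were only quoted here, with the sign turned to knockout over wild type. The 5 tally rows of the counting tool stayed out of library sizes and tests, and 27 row names that look like dates and 4 rows with a repeated name were not named.

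The test was edgeR 4.0.16 (R 4.3.3). Low genes were removed with filterByExpr (at least 10 counts, and 15 in total), libraries were scaled by TMM, and glmQLFit with glmQLFTest compared the genotypes without further terms. P-values were adjusted by Benjamini-Hochberg over the 15796 genes kept. Adjusted p values are from this test unless another is named, and a gene was called under 0.05 with no minimum fold. The SE of a log2 fold change is its size over the root of F. Precision was read from the spread between animals, and the script was tested on simulated data with 200 changed genes.

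Spread is the standard deviation of log2 CPM (prior count 2). For the GC correction, offsets took out a lowess curve (span 0.3) of log2 CPM against transcript GC content in each library, using genes whose mean log2 CPM exceeded 2. Exon overlap, transcript length and GC content came from GENCODE M21 (GRCm38), and promoters from RefSeq (GRCm38.p6). Alternatives were other scaling factors and filters, DESeq2 1.42.0, voom in limma 3.58.1, edgeR's exact test, a block for the animal number, terms for sex and for cornea and erythroid markers, the GC correction, and each library left out. A term for endothelial markers was chosen after seeing the data. A marker term is the list's mean log2 CPM.

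The 35 genes and the further lists were chosen with earlier results of these data known. The naming rule took all 35 genes, Ahr, and from each further list the called genes or, with none called, the 2 genes of smallest unadjusted p.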

Additional observations from a re-analysis of the deposited data

Results flagged for a closer look

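Outside the gene counts, the tally of reads that aligned to more than 1 place was larger in the knockout-labelled libraries. These reads were left out of every gene's count, so the tally enters none of the comparisons above. It made up 25.06%, 23.65% and 22.94% of all rows in knockout-labelled animals 1, 2 and 3, a mean of 23.88% ± 1.08 (SD, n = 3), and 18.70%, 19.36% and 19.06% in wild-type animals, a mean of 19.04% ± 0.33 (SD, n = 3). The groups did not overlap, and the part of these reads in the values of the 35 genes was not tested.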

How the results depend on the processing

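Klf2, Nr4a1, Dusp1, Ctgf, Gadd45g, Jund, Egr3, Klf6, Ier3 and Dusp5, the 10 genes below an unadjusted p of 0.05, held their sign in all 19 alternatives, and 18 of the other genes turned theirs in at least 1 of them (64 of 645 values in all). The cause was not tested. The 10 were picked by p in the same libraries, which favours a kept sign, so this is not separate support. Among them Jund came to -0.0183 with GC correction and Dusp1 to -0.0555 with the erythroid term. Against 8 genes called in all, there were 15 with upper-quartile factors, 22 with no filter, 16 with a CPM of at least 1 in 3 libraries, 458 in DESeq2, 13 in limma-voom, 352 in the exact test, 1 with sex, 33 with the cornea term, 866 with the erythroid term, 0 with the endothelial term, and 0 to 795 with 1 library left out, the 795 without knockout-labelled animal 1. Against 0 of the 35 genes called, there were 3 in DESeq2, 2 in the exact test, 1 with the cornea term, 2 with the erythroid term, and 0 to 1 with 1 library left out. The number below an unadjusted p of 0.05 ranged from 6 without wild-type animal 2 to 12 without knockout-labelled animal 3. The median log2 fold change was -0.42 with the cornea term, -0.54 with the endothelial term and 0.14 with the erythroid term, and ranged from -0.28 without wild-type animal 3 to 0.014 without wild-type animal 1.

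Animals of the same number in the 2 groups did not deviate together (correlations -0.096, -0.092 and -0.067). The animals numbered 1, both female, gave -0.096, so the check did not register a trait they share. It therefore cannot decide whether the numbers pair the animals. With the animal number as a block, 1 gene was called in all, 0 of the 35 genes were, 9 were below an unadjusted p of 0.05, the median was -0.09, and Maff turned to 0.0047.

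Log2 fold changes turned sign with the erythroid term for Fos (1.18), Junb (0.33), Egr1 (0.20), Nr4a3 (-0.59), Maff (0.19), Dusp2 (-0.27), Zfp36 (0.56), Btg2 (0.37), Ier5 (0.0041) and Cyr61 (0.12). With the cornea term this was so for Fosl2 (-0.60), Jun (-0.028), Nr4a2 (-0.53), Klf4 (-0.33), Klf10 (-0.12) and Dusp6 (0.15), and with the endothelial term for Fosl2 (-0.63), Jun (-0.13), Nr4a2 (-0.52), Klf4 (-0.36), Maff (0.16) and Dusp6 (0.23). With GC correction it was so for Junb (0.091), Nr4a2 (-0.038), Maff (0.19), Zfp36 (0.081) and Ier5 (0.011). Nr4a2, at 0.00, turned to -0.0017 with DESeq2 size factors, -0.0046 with upper-quartile factors, -0.016 with no filter and -0.0019 in DESeq2. In limma-voom Maff turned to 0.012 and Dusp2 to -0.068. With 1 library left out, values crossed 0 for Fos (-0.74 to 0.35), Fosl2 (-0.11 to 0.53), Jun (-0.063 to 0.16), Nr4a2 (-0.28 to 0.41), Nr4a3 (-0.10 to 0.52), Klf10 (-0.12 to 0.21), Myc (-0.13 to 0.19), Maff (-0.26 to 0.15), Dusp2 (-0.17 to 0.44), Dusp6 (-0.41 to 0.0033), Zfp36 (-0.40 to 0.17), Btg2 (-0.40 to 0.12), Socs3 (-0.16 to 0.28) and Ier5 (-0.12 to 0.017). Without 1 library the value also moved by over 1.5 times, with no change of sign, at its farthest for Junb (-0.05 when wild-type animal 1 was left out and -0.55 when knockout-labelled animal 3 was), Fosb and Ier2 (-0.96 and -0.73 without knockout-labelled animal 3), Klf4 (0.87 without wild-type animal 1, 0.23 without wild-type animal 2), Atf3 (0.20 without wild-type animal 3), Gadd45b (0.05 without knockout-labelled animal 2) and Ier3 (0.28 without wild-type animal 1), besides the values for Egr1, Egr2, Cyr61 and Dusp1 given above.

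Depth limits Egr3, Arc, Nr4a3 and Dusp5, each under 130 reads in every library.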
